A study of Homo sapiens with 4 samples.

Results

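GATA3 regions found in both replicates lay at the promoters of protein-coding genes in 432 of 9145 cases in H1 human embryonic stem cells (hESC) exposed to the growth factor BMP4. A shared region was a peak position of replicate 1 with a peak position of replicate 2 within 100 bp, centred on the mean of the pair. It was taken as a promoter region where the centre lay within 1 kb of the 5′ end of a protein-coding gene of GENCODE release 44 on hg38, on chromosomes 1 to 22, X and Y. The 5′ end of a gene is the outermost one in the annotation. H1 is an established pluripotent line, grown here on Matrigel in mTeSR1 medium. Every sample received BMP4 at 50 ng/ml for 6 h, and the 2 ChIP samples were precipitated with an antibody to GATA3. The other 2 samples were input chromatin, which entered only through the authors' peak calling. No untreated GATA3 ChIP library was analysed here, so no value below measures a response to BMP4. The replicates listed 18456 and 12782 positions on these chromosomes, without heights or widths, and the read depth behind a position is unknown. The study's methods call the replicates biological, the labels do not say how they were made, and every p-value below measures counting over regions, with intervals that cover counting error only.

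GATA factors bind DNA through zinc fingers that recognise a GATA core flanked by A or T and by A or G, written WGATAR, where W stands for either of the first pair of letters and R for either of the second. GATA3 is a factor of trophoblast, amnion and other early lineages that BMP signalling calls up in pluripotent cells, and it is best known for binding enhancers far from genes. Promoters differ from enhancers in sequence. Many of them lie in CpG islands, stretches rich in G, C and CpG dinucleotides where A and T are scarce, and some are shared by a pair of genes that start back to back on opposite strands (divergent pairs).
These windows are shown because they carry the contrast between promoter regions with and without the motif. The first surround the region centres of 4 genes of the study, pluripotency and early lineage lists described below, whose region lay upstream of the 5′ end and held WGATAR. They are LIN28A (an RNA-binding protein that blocks let-7 maturation), DPPA2 (a chromatin protein of pluripotent cells), ISL1 (a LIM homeobox factor) and CDX2 (a caudal homeobox factor of trophectoderm and posterior mesoderm). Each is 200 bp of hg38, shortened where an exon of a protein-coding gene began, and read 5′ to 3′ on the strand of the gene. Capitals mark WGATAR or its reverse complement.
LIN28A (chr1:26410297-26410496, plus strand): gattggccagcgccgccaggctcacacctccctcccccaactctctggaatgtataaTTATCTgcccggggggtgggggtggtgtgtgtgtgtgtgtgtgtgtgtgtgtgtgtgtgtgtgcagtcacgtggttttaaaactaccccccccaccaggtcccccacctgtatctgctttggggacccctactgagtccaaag
DPPA2 (chr3:109316518-109316658, minus strand): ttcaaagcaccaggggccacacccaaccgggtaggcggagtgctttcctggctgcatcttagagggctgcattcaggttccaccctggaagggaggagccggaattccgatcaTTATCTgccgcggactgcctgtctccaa
ISL1 (chr5:51383309-51383447, plus strand): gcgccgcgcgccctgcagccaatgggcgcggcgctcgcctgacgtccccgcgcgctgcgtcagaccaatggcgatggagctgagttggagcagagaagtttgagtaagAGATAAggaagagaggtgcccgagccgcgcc
CDX2 (chr13:27969328-27969527, minus strand): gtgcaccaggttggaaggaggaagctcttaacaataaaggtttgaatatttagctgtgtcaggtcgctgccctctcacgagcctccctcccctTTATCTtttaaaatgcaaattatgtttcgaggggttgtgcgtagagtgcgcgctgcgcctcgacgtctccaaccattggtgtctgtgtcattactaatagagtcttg
In CDX2 the motif lay 4.25 bp from the region centre, and the same window held the octamer ATGCAAAT read by POU factors such as OCT4. In ISL1 the motif lay 11 bp from the centre, in DPPA2 16 bp and in LIN28A 40 bp.

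The next sequences are from genes of the same lists whose upstream window held no WGATAR, and they were added after their values were seen. TBX3 also had such a window and was not among those chosen. HES1 encodes a basic helix-loop-helix repressor and TFAP2A the factor AP-2 alpha of trophoblast and surface ectoderm.
HES1 (chr3:194135969-194136147, plus strand): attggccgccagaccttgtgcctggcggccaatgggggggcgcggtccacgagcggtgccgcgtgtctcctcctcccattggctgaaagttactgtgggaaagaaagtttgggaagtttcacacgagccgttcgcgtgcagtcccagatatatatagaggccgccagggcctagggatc
TFAP2A (chr6:10419682-10419881, minus strand): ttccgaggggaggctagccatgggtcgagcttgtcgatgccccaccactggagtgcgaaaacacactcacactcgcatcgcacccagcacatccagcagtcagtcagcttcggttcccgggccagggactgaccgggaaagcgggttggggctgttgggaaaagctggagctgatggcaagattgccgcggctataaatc
Both windows were CpG-rich, with GC contents of 60.5% and 60% over the whole 200 bp. The nearest WGATAR to the centre lay 104.5 bp away at HES1, just outside the window, and 559.5 bp away at TFAP2A, whose window held TATAAA. For comparison, these are the 3 windows without WGATAR whose centres lay nearest to a 5′ end on its upstream side, among those whose centre lay outside every protein-coding exon with enough flanking sequence left to print, at IDH1 (a cytosolic isocitrate dehydrogenase), METTL25 and ATOH1 (a basic helix-loop-helix factor of neurons and hair cells).
IDH1 (chr2:208266075-208266190, minus strand): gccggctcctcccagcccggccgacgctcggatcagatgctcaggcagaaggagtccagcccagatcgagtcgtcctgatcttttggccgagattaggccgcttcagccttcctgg
METTL25 (chr12:82358410-82358527, plus strand): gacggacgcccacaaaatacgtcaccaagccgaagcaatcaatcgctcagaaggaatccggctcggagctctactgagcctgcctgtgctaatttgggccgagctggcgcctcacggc
ATOH1 (chr4:93828603-93828752, plus strand): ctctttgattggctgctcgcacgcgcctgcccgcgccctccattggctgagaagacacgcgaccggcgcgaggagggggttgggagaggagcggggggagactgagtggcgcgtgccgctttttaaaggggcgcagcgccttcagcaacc
Their centres lay 16, 29.5 and 51 bp upstream of the 5′ ends, with the replicates on both sides of the 5′ end at METTL25, and none of the 3 held even the GATA core alone in its 200 bp.

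Promoter regions were most numerous just ahead of the 5′ end. Of the 432 regions, 238 lay upstream of the nearest 5′ end and 194 downstream, so that 55.1% were upstream (95% Wilson interval 50.4 to 59.7). By position alone 49.1% of the bases within 1 kb of a 5′ end are upstream of it, and the excess passed a two-sided exact binomial test (p = 0.0140, adjusted p = 0.0173 over the 16 tests of this kind). Replicate 1 positions alone gave 54.6% upstream (exact p = 0.000961), and replicate 2 positions alone gave 52.4%, which did not pass the exact test (p = 0.0901). It was steeper within 200 bp, a distance chosen after the counts were seen, where 84 regions lay upstream and 43 downstream (66.1%, 57.5 to 73.8, against 49.0% of bases, exact p = 0.000120, adjusted p = 0.000192). The fullest 100 bp were those from 200 to 100 bp upstream, with 49 regions, followed by the last 100 bp before the 5′ end with 35. Beyond the 5′ end there were 11 regions between 500 and 600 bp downstream and 28 between 800 and 900 bp. The distance from the 5′ end had a median of 388 bp and quartiles of 172 and 721 bp.

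**Figure D1:**
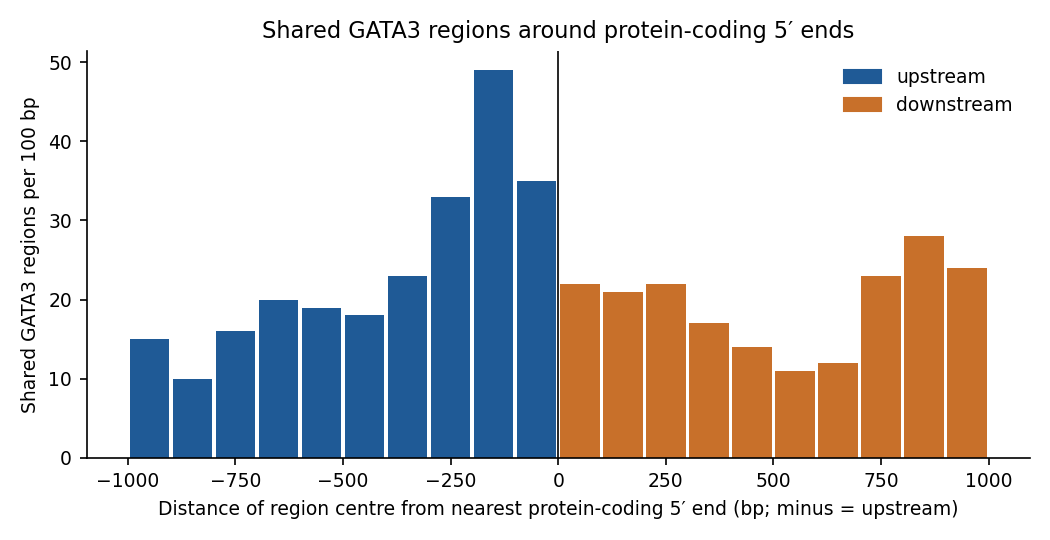
Number of shared GATA3 regions in each 100 bp (vertical axis) by distance of the region centre from the nearest protein-coding 5′ end in bp (horizontal axis, minus upstream). The bars are highest at 200 to 100 bp upstream (49 regions), lowest at 900 to 800 bp upstream (10 regions), and rise again at 800 to 900 bp downstream (28 regions).

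Against the main transcript of each gene, 301 regions lay before the start of the Ensembl canonical transcript, among them 63 of the 194 that were downstream of the gene's outermost 5′ end. Among genes named below, TDGF1, LHX1, NR2F2, SPRY4, AHNAK, ARHGEF3, TBC1D8, HYAL4, KLC2 and GPM6A are examples of these 63. A further 90 lay in introns (85 of them in intron 1), 24 lay in 5′ UTR exons, 14 in coding exons, 1 in a 3′ UTR exon and 2 past the end of the canonical transcript. The span of another protein-coding gene covered 65 regions (15.0%, 12 to 18.7). A lncRNA 5′ end lay within 1 kb of 76 regions (17.6%, 14.3 to 21.5), beside 13.5% of all protein-coding 5′ ends. The first share was measured from region centres and the second from the 5′ ends, and they were not tested against each other. The farthest region counted was 996 bp from the 5′ end of TRIM38, and the nearest one not counted was 1001.5 bp from that of IFNK.

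Among the pairs that the limit of 100 bp kept, replicate positions differed by a median of 22.5 bp at promoters and 23 bp at the 8713 shared regions elsewhere, a description only because that limit chose the pairs. Of the 432 promoter regions, 424 (98.1%) had both positions on the same side of the 5′ end. The positions differed by 0 bp in 5 regions, those of FOXF2, ZNF609, ATF6, CAPZA2 and the ZNF670-ZNF695 readthrough gene, which are named after their values were seen. The widest difference kept was 99 bp. In replicate 1 the share of positions with a partner did not pass the test between promoters and elsewhere, 433 of 882 (49.1%, 45.8 to 52.4) against 8712 of 17574 (49.6%, 48.8 to 50.3; Fisher's exact test, two-sided, p = 0.783, odds ratio 0.981 with a 95% interval of 0.857 to 1.12). In replicate 2 the share was lower at promoters, 433 of 674 (64.2%, 60.6 to 67.8) against 8712 of 12108 (72.0%, 71.1 to 72.7; Fisher's exact test, p = 2.45e-05, adjusted p = 4.90e-05). The difference between the replicates in this comparison was not tested.

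The GATA motif was less frequent at promoter regions than at the other shared regions and far more frequent than in promoters at large. WGATAR on either strand was present in the central 200 bp of 280 of 432 promoter regions (64.8%, 60.2 to 69.2) and of 7218 of 8713 other shared regions (82.8%, 82.0 to 83.6; Fisher's exact test, two-sided, odds ratio 0.382, 95% interval 0.310 to 0.468, p = 2.57e-18, adjusted p = 4.11e-17). When the 2 kb around all 20033 protein-coding 5′ ends were cut into 200320 windows of 200 bp, 19.8% held it. Weighted to the GC content of the promoter regions, that share was 19.4%. The share was lower within 1 kb than in any class farther out. Regions 1 to 10 kb from a 5′ end held the motif in 80.8% of 1129 windows (78.4 to 83.0), those 10 to 50 kb away in 81.4% of 2273 and those beyond 50 kb in 83.9% of 5311, and the promoter regions were below the 1 to 10 kb class alone (odds ratio 0.438, p = 1.16e-10 by Fisher's exact test, adjusted p = 6.18e-10, added after the data were seen).

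Sequence composition moved with the motif. The windows had a median GC content of 54% at promoter regions and 43.5% at the others. A window was called CpG-rich with GC of at least 50% and a ratio of observed to expected CpG of at least 0.6, and 160 promoter regions were (37.0%, 32.6 to 41.7) against 233 of the others (2.67%, 2.36 to 3.03). Windows of promoters at large were CpG-rich in 33.9%, a share close to that of the promoter regions. Within the promoter regions WGATAR was present in 76 of 160 CpG-rich windows (47.5%, 39.9 to 55.2) and 204 of 272 others (75%, 69.5 to 79.8; Fisher's exact test, two-sided, odds ratio 0.302, p = 1.28e-08, adjusted p = 4.10e-08). CpG-rich windows at large held it in 6.60% and other promoter windows in 26.6%. CpG-rich windows had the motif in 47.5% at promoters and 55.4% elsewhere, which did not pass Fisher's exact test (odds ratio 0.729, interval 0.488 to 1.09, p = 0.150, adjusted p = 0.172). Windows that were not CpG-rich differed, 75% against 83.6% (Fisher's exact test, odds ratio 0.589, interval 0.443 to 0.775, p = 0.000357, adjusted p = 0.000519). Both splits were added after the data were seen. Pooled over quintiles of GC content (Mantel-Haenszel), the odds ratio of promoter regions against the others was 0.559, nearer to 1 than 0.382.

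**Figure D2:**
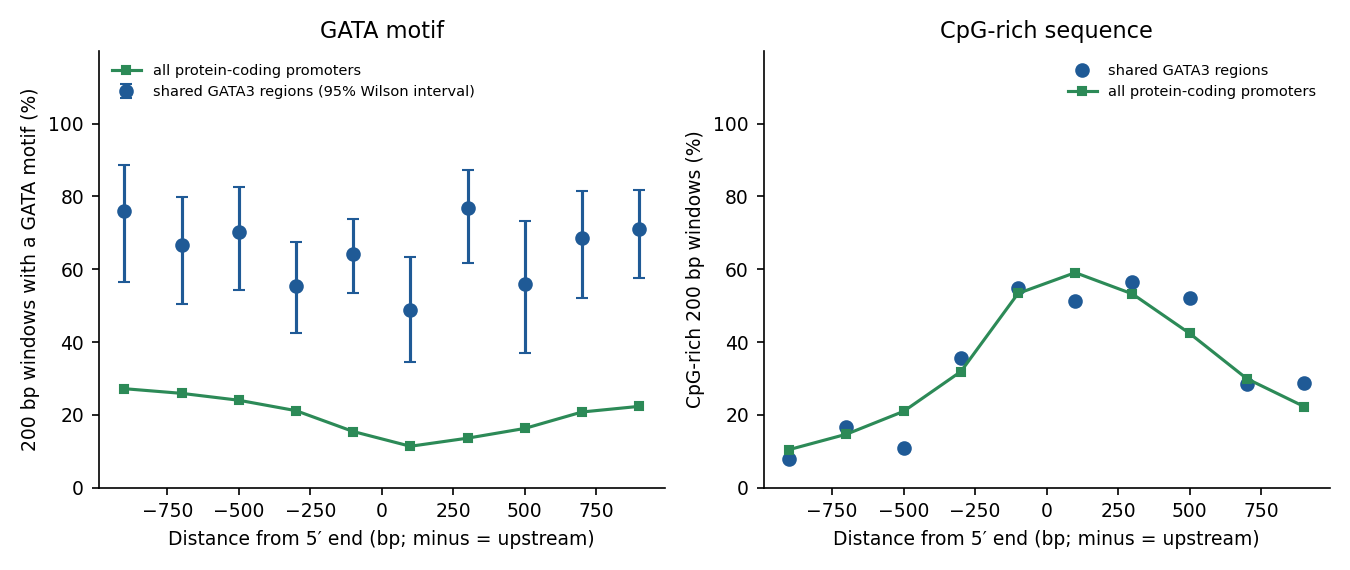
Share in percent of 200 bp windows with WGATAR (left, bars are 95% Wilson intervals) and of CpG-rich windows (right) by distance from the 5′ end in bp, for promoter regions (blue points) and all protein-coding promoters (green line). The motif share of promoter regions lay between 48.8% and 76.9% in the 10 bins, against 11.4% to 27.2% in promoters at large, and CpG-rich windows were most frequent at 200 to 400 bp downstream among promoter regions (56.4%).

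CpG-rich windows were most frequent from 200 bp upstream to 600 bp downstream of the 5′ end. Their share was 51.2% to 56.4% in the 4 bins of that stretch. It was 54.8% among regions in the last 200 bp upstream and 8% among those 1000 to 800 bp upstream, where all promoters gave 53.4% and 10.5%. Of the 160 CpG-rich regions, 68 lay within 200 bp of the 5′ end and 92 beyond. The motif was present in 64.3% of the regions in the last 200 bp upstream and in 76% of those 1000 to 800 bp upstream, and its lowest share, 48.8% (34.6 to 63.2), was in the first 200 bp downstream. Between upstream and downstream regions it did not pass the test, with 154 of 238 (64.7%) and 126 of 194 (64.9%; Fisher's exact test, p = 1, odds ratio 0.989, interval 0.666 to 1.47).

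WGATAR was densest at the centre of the regions. Its density was 7.81 sites per kb in the central 40 bp of the promoter regions and 1.16 per kb at 300 to 500 bp from the centre. Other shared regions had 13.1 and 2.57 per kb. CpG-rich promoter regions showed the same peak at a lower level, 5.31 against 0.859 per kb, and the promoter regions that were not CpG-rich 9.28 against 1.34 per kb. Among the 280 regions with a motif, the nearest one lay a median of 22 bp from the centre, and 17.5 bp in the 7218 others. At least 2 motifs were present in 73 promoter regions (16.9%, 13.7 to 20.7) and in 35.5% of the others.

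**Figure D3:**
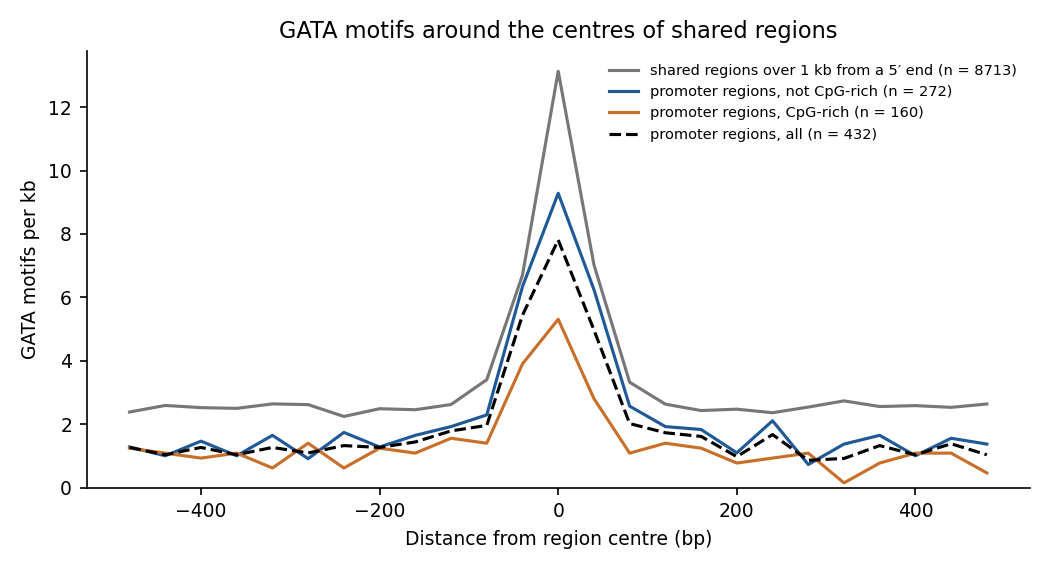
WGATAR sites per kb (vertical axis) in 40 bp bins by distance from the region centre in bp (horizontal axis), for the promoter regions, their CpG-rich and other members, and the shared regions over 1 kb from a 5′ end. Every line peaks in the central bin, at 13.1 for the regions away from promoters, 9.28 for promoter regions that are not CpG-rich and 5.31 for CpG-rich ones.

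Of the 152 promoter regions without WGATAR, 84 were CpG-rich (55.3%, 47.3 to 62.9) and 48 held a GC box (31.6%, 24.7 to 39.3). Away from promoters, the regions without the motif were CpG-rich in 6.96% and held a GC box in 7.96% of 1495 windows. Windows of promoters at large were CpG-rich in 33.9% and held a GC box in 24.7%, and the 152 were not tested against them. A bare GATA core was present in 99 of the 152, and 53 promoter regions (12.3%, 9.50 to 15.7) had none, beside 7.16% of the other shared regions. Of the windows of promoters at large 42.3% held a core. The replicate positions of the 152 differed by a median of 20.5 bp, and those of the 280 with the motif by 25 bp.

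Positions without a partner within 100 bp in the other replicate, called unshared, were poorer in the motif. An unshared position may still have a position of the other replicate farther away. In replicate 1 it was present at 281 of 433 shared promoter positions (64.9%, 60.3 to 69.2) and 192 of 449 unshared ones (42.8%, 38.3 to 47.4; Fisher's exact test, two-sided, odds ratio 2.47, p = 4.86e-11, adjusted p = 3.89e-10). In replicate 2 it was present at 275 of 433 (63.5%, 58.9 to 67.9) and 94 of 241 (39.0%, 33.1 to 45.3; Fisher's exact test, odds ratio 2.72, p = 1.13e-09, adjusted p = 4.53e-09). The unshared positions were CpG-rich in 43.4% and 47.3% in the 2 replicates and the shared ones in 39.7% and 38.6%. Within CpG-rich windows alone the odds ratios were 3.24 and 2.51, and within the other windows 2.19 and 2.76, with a highest adjusted p of 0.000616 by Fisher's exact test (splits added after the data were seen). Unshared positions were still above the 19.8% of promoter windows at large.

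Of a panel of 18 motifs, 12 differed between promoter and other shared regions in Fisher's exact test after Benjamini-Hochberg adjustment over the panel, 4 more frequent and 8 less frequent at promoters. The more frequent were GC-rich. GGGCGG, the GC box of SP and KLF factors, was present in 23.1% (19.4 to 27.4) against 4.41% (Fisher's exact test, odds ratio 6.53, adjusted p = 8.72e-38), and GGCGCC, a site of SMAD1 and SMAD5, in 10.4% (7.88 to 13.7) against 1.54% (Fisher's exact test, odds ratio 7.44, adjusted p = 3.14e-20). Promoters at large held these in 24.7% and 10.9% of windows, and promoter regions lay close to that. CCGGAAG of ETS factors (2.31% against 0.574%) and GGTTCGA, the B box of tRNA genes (1.39% against 0.402%), were the other 2 (adjusted p = 0.000809 and 0.0194 by Fisher's exact test). Promoters at large held these 2 in 3.16% and 0.660% of windows. Less frequent, beside WGATAR itself, was its strict form AGATAA (39.6% against 52.2%). The SOX site, spelled ACAAAGG or with T in place of the fifth letter, was present in 5.79% against 13.6%, and the TEAD site GGAATG in 11.1% against 19.3%. The POU octamer ATGCAAAT was present in 1.62% against 5.27%. The AP-1 site, spelled TGACTCA or with G in the middle, was present in 3.24% against 5.76%. The TATA box, searched as TATAAA, was present in 4.17% against 8.99%. The letters of WGATAR read backwards without complement, a check on base composition, were present in 20.1% against 33.2%. In promoters at large AGATAA was present in 7.75% of windows, the SOX site in 4.67% and the TEAD site in 9.38%. The octamer was present there in 0.839%, the AP-1 site in 2.34%, the TATA box in 8.55% and the reversed letters in 17.2%. Promoter regions were not tested against promoters at large. Those that did not pass were the CCAAT box (21.5% against 24.9%), the SMAD element GTCTG (33.1% against 36.2%), the E-box CACGTG, the YY1 site AAGATGG, the CREB site TGACGTCA and the CTCF motif. Motifs were searched on both strands, the strict form is one spelling of WGATAR, and the GC box can share bases with the SMAD site. Pooled over GC quintiles, a check added afterwards, 7 motifs passed: the GC box and the SMAD1 and SMAD5 site more frequent (odds ratios 2.51 and 3.01), and WGATAR, its strict form, the SOX site, the TEAD site and the SMAD element less frequent (0.559, 0.748, 0.547, 0.560 and 0.751). The reversed WGATAR did not (0.875, interval 0.681 to 1.12), nor did the POU octamer (0.526, interval 0.245 to 1.13).

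**Figure D4:**
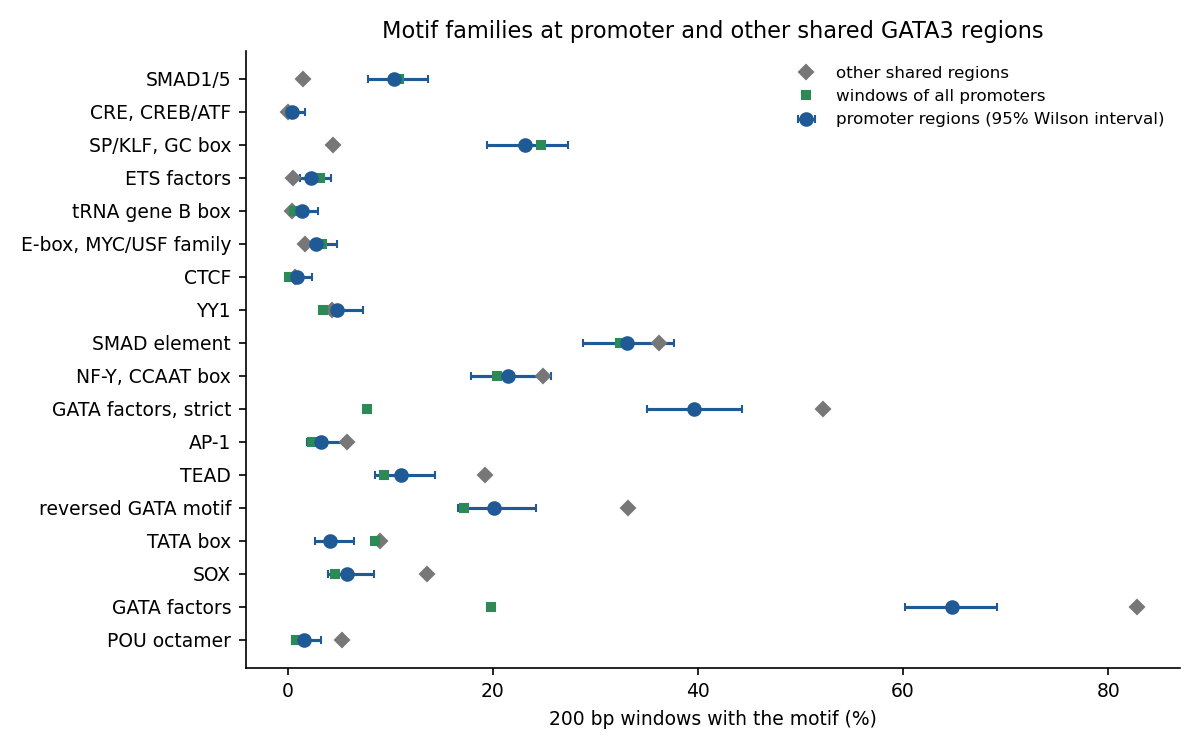
Share in percent of 200 bp windows that hold each motif (horizontal axis), for promoter regions (blue, 95% Wilson intervals), other shared regions (grey) and windows of all promoters (green). WGATAR was present in 64.8% of promoter regions, 82.8% of other shared regions and 19.8% of windows of all promoters.

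The 432 regions touched 484 protein-coding genes, which is 2.42% of the 20033 in the annotation, and were nearest to 429 of them. Shares of gene lists are set beside that 2.42%, and no list was tested. Motif and CpG-rich counts within a list stand beside the 64.8% and 37.0% of all promoter regions, also without a test. The region lay within 1 kb of 1 gene in 378 cases and of 2 or more in 54. Of these 54, 20 were at divergent pairs, 14 at other genes of opposite strands and 20 at genes that start together on 1 strand. A further shared region lay 1 to 50 kb from the 5′ end of 156 of the 484 genes (32.2%, 28.2 to 36.5), and from that of 25.4% of the 19549 genes without a promoter region (24.8 to 26). Among the 484 genes, HES1, TFAP2A and AHNAK had the most, 5 shared regions within 50 kb with the promoter region included. Genes without a promoter region were not ranked, and GATA3 among them had 6.

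Of the 7 genes that the study assayed by GATA3 ChIP-qPCR, 4 had a promoter region, all upstream. The study chose them for that assay in these cells, so this count is not independent evidence. At CDX2 (5′ end at 27969315 on chromosome 13) the positions lay 121.5 bp upstream in replicate 1 and 103 bp in replicate 2. At HES1 (194136148 on chromosome 3) they lay 69 and 91 bp upstream, and at ISL1 (51383448 on chromosome 5) 86 bp upstream and 7 bp downstream. At SNAI2, the zinc finger repressor Slug of epithelial-mesenchymal transition (48921740 on chromosome 8), they lay 404 and 454 bp upstream, with 2 motifs in the window. Both replicates lay upstream at CDX2, HES1 and SNAI2, and they lay on either side of the 5′ end at ISL1. The other 3 genes had their nearest region outside the limit, at 1.14 kb downstream of the 5′ end for GATA3 itself, 3.86 kb downstream for FOXC1 and 6.25 kb downstream for BMP4. The limit counts from the outermost 5′ end, so this does not mean that no promoter was bound. The study reported GATA3 ChIP-seq peaks at the GATA3 promoter and at the BMP4 gene and promoter region. Its ChIP-qPCR primers were labelled promoter at FOXC1 and Int at CDX2, and the amplicons were not placed here.

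Of the 6 GATA genes, GATA6, a factor of endoderm and heart, alone had a promoter region (16.7%). Its positions lay 332 and 370 bp downstream of the 5′ end at 22169589 on chromosome 18, in intron 1, and the window held 4 motifs, the second highest number of all promoter regions. GATA2, a trophoblast factor, had its nearest region 2.37 kb upstream. Of 76 genes of the BMP and TGF-beta pathway only SMAD5 and TGFB2 had one (2.63%, 0.725 to 9.10), a share close to the 2.42% of all genes. SMAD5, a transcription factor phosphorylated by BMP receptors, was covered in intron 1, with positions 540 and 611 bp downstream and 2 motifs. TGFB2, a secreted ligand, was covered in exon 1 within the 5′ UTR, with positions 142 and 52 bp downstream and 3 motifs. Of the ID genes that the study's text names as SMAD targets, ID1 had its nearest region 2.21 kb downstream, and ID2 and ID4 had none within 50 kb. The distance at ID3 is not given here.

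Pluripotency genes had a promoter region in 3 of 24 cases (12.5%, 4.34 to 31.0), each with WGATAR and none in a CpG-rich window. Over all promoter regions 64.8% held WGATAR and 37.0% were CpG-rich, and the difference was not tested. LIN28A carried its region 408 bp upstream in replicate 1 and 433 bp in replicate 2, and DPPA2 24 and 59 bp upstream. At TDGF1, the NODAL co-receptor Cripto, both positions lay downstream of the outermost 5′ end, at 58 and 41 bp, and the window held 2 motifs. The core factors were not among them. Counted from the outermost 5′ end, the nearest regions lay 4.88 kb downstream at SOX2, 7.61 kb downstream at POU5F1, which encodes OCT4, and 148 kb away at NANOG. Their sides relative to the canonical transcript starts were not determined.

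Genes of early mesoderm and trophoblast had a promoter region in 4 of 35 cases (11.4%, 4.54 to 26), TFAP2A (a factor described above), TBX3 (a T-box repressor), LHX1 and GATA6. All 4 lay in CpG-rich windows, beside 37.0% of all promoter regions. GATA6 alone held WGATAR, beside 64.8% of all promoter regions. These counts were not tested against all promoter regions or against the pluripotency list. The positions at TFAP2A lay 118 and 126 bp upstream and at TBX3 280 and 302 bp upstream. At LHX1, a LIM homeobox factor, they lay 649 and 688 bp downstream of the outermost 5′ end but before the canonical transcript. No WGATAR was found within 1 kb of the centre. The mesendoderm genes MIXL1, EOMES and TBXT had their nearest region 2.62 kb upstream, 41.8 kb downstream and 128 kb downstream.

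**Figure D5:**
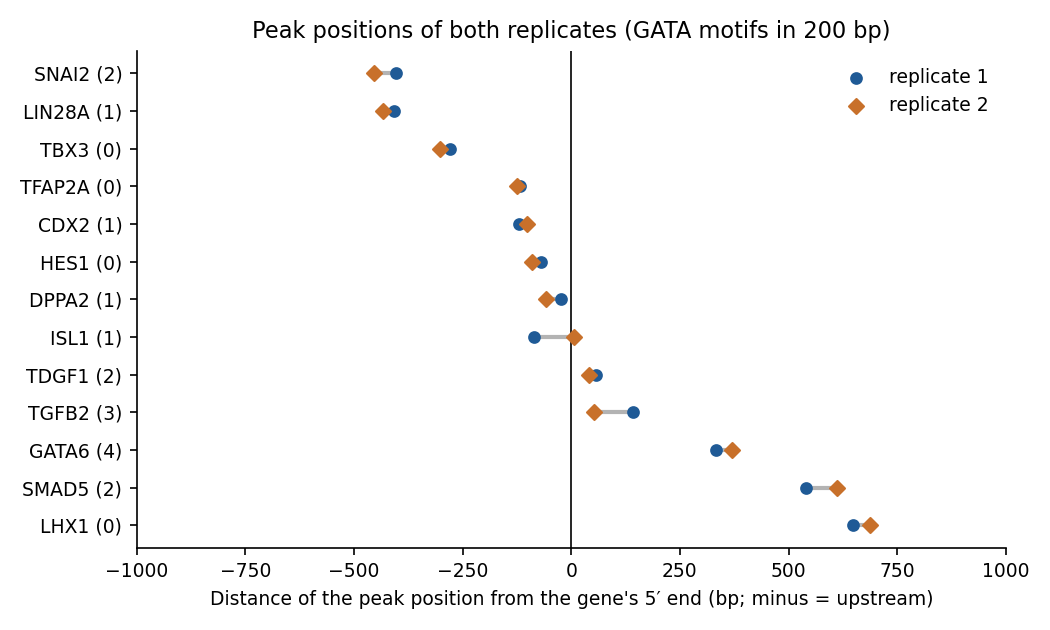
Peak positions of replicate 1 (circles) and replicate 2 (diamonds) relative to the 5′ end in bp (horizontal axis, minus upstream) for 13 genes of the GATA, BMP pathway, study, pluripotency and early lineage lists, with the number of WGATAR in the 200 bp window in brackets. The replicates lie on the same side of the 5′ end at every gene but ISL1, and 4 windows (HES1, TFAP2A, TBX3, LHX1) hold no motif.

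In other families of developmental regulators 1 to 5 genes each had a promoter region. Homeobox genes had 5 of 194 (2.58%, 1.11 to 5.89), CDX2, ISL1, LHX1, SHOX2 and EN1, of which SHOX2, a limb and heart factor, lay nearest at 31.5 bp upstream with its replicate positions 99 bp apart on either side of the 5′ end, and EN1, a midbrain factor, 251 bp downstream with 2 motifs. The SOX genes had 1 of 20, SOX5 (446.5 bp upstream), and the FOX genes 1 of 51, FOXF2 (144 bp upstream in both replicates). The nuclear receptors had 1 of 48, NR2F2 (264 bp downstream, 3 motifs), and the Notch pathway 1 of 20, MAML3, a coactivator (624 bp downstream). TBX3 was the 1 of 17 T-box genes, and HES1 the 1 of 14 HES, HEY and ID genes. SP5, a WNT target, and SP8 were the 2 of 27 KLF and SP genes (7.41%), at 396 and 360.5 bp upstream. ATF6, a sensor of endoplasmic reticulum stress, and CREB3L3, a liver factor of lipid metabolism, were the 2 of 32 AP-1, CREB and ATF genes, at 27 bp downstream and 157 bp upstream.

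The FGF pathway had 5 of 63 (7.94%, 3.44 to 17.3) and the WNT pathway 4 of 65 (6.15%, 2.42 to 14.8). Among FGF ligands, the region lay 76 bp upstream of FGF19 in a window of 71% GC without WGATAR, 367 bp upstream of FGF3 with 1 motif and 485.5 bp upstream of FGF2 with 1 motif. SPRY4 and SPRED2, which restrain the pathway, had theirs 117.5 and 484.5 bp downstream, neither with a motif. In the WNT list, which also holds SP5, the region lay 197 bp upstream of FRZB, a secreted antagonist, and RSPO2, a secreted agonist, and DVL3, a cytoplasmic transducer, had theirs 687 and 935 bp inside the gene. WGATAR was present in 2 of the 5 FGF and 3 of the 4 WNT windows.

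Among housekeeping classes, the proteasome, the protease complex that degrades ubiquitinated proteins, had 5 of 50 genes (10.0%, 4.35 to 21.4). Each region held WGATAR and none was in a CpG-rich window. Over all promoter regions 64.8% held WGATAR and 37.0% were CpG-rich, and the difference was not tested. PSMC4, an ATPase of the proteasome base, lay nearest, with the region 102 bp into the gene. PSMD12, PSMD9 (an assembly chaperone) and PSMD3 had theirs 343, 424.5 and 659 bp upstream. PSMA4, a core subunit outside the rule for naming, had its region 896.5 bp downstream. Cytosolic ribosomal protein genes had 0 of 88, which allows a share of up to 4.18%, an interval that includes 2.42%. Mitochondrial ribosomal protein genes had 3 of 78, at 11.5 bp upstream of MRPL9, 140 and 150 bp upstream of MRPS23 in the 2 replicates, and 768 bp upstream of MRPL1. Respiratory chain genes had 1 region, 175.5 bp upstream of NDUFC2, which starts beside the readthrough gene NDUFC2-KCTD14. Histone genes had 3 of 93 (H4C3, MACROH2A1 and H4C4), none with WGATAR. The H4 genes have nearly identical copies, so reads there may be hard to place, although the authors left out multiply mapped reads.

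Zinc finger genes of the ZNF type had 20 of 598 (3.34%, 2.18 to 5.11), most of them upstream (14 regions) and 8 of the 20 with WGATAR, beside 64.8% of all promoter regions, which was not tested. The list was matched by symbol and includes ZFP36L1, a zinc finger protein of another type. The nearest regions lay 52, 80, 108 and 112.5 bp upstream of ZNF462, ZNF670, ZNF737 and ZNF669, and none of the 4 had a motif. Chromatin regulators had 7 of 160 (4.38%, 2.14 to 8.75), 5 of them in CpG-rich windows and 2 with WGATAR. The nearest were PCGF1, a Polycomb subunit, with the region 104.5 bp into the gene, ARID1A, a BAF subunit, 111 bp upstream, KMT2A, a histone H3 methyltransferase, 158.5 bp upstream in a window of 76% GC, and SMARCA5, an ISWI ATPase, 169 bp upstream with 2 motifs. Solute carriers had 5 of 372 (1.34%), with SLC26A9 nearest at 90.5 bp upstream, followed by SLC2A12 (287.5 bp upstream), SLC13A5 (410 bp upstream) and SLC35D1 (805 bp downstream).

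The remaining lists were near 2.42%. Extracellular matrix and adhesion genes had 7 of 242 (2.89%), led by the ephrin receptor EPHA3 (32 bp downstream), the cadherin CDH10 (101.5 bp upstream), the collagen COL12A1 (236.5 bp upstream) and the ephrin EFNA3 (256 bp upstream). Small GTPases and their regulators had 5 of 209 (2.39%), namely RAB2B (78.5 bp upstream), RASSF10 (386 bp upstream), RHOD (417 bp downstream), ARHGAP12 (899.5 bp downstream) and ARHGEF3. Cell cycle genes had 3 of 128 (2.34%). They were the pocket protein gene RBL2 (254.5 bp upstream), CDKN2AIPNL (420 bp downstream) and CDKN2B, an inhibitor of CDK4 and CDK6 (604.5 bp downstream). This list was also matched by symbol, which brought in CDKN2AIPNL, not itself a CDK inhibitor gene.

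The 10 regions nearest to a 5′ end lay within 22.5 bp of it. They belonged to RAD18 (8 bp upstream), a ubiquitin ligase of DNA damage tolerance, HYAL4 (8.5 bp downstream), KLC2 (10 bp downstream), a kinesin light chain with a motif 0.5 bp from the centre, TRIML2, MRPL9, GAP43 (15 bp downstream), a growth cone protein, IDH1, TMPRSS11F (16 bp upstream), GPM6A (20 bp downstream) and PSAP (22.5 bp downstream), the precursor of the saposins. Of these windows, 4 (MRPL9, GAP43, IDH1 and PSAP) were CpG-rich without WGATAR, KLC2 was CpG-rich with it, and the other 5 held it and were not CpG-rich. The replicate positions lay on opposite sides of the 5′ end at 5 of the 10 (RAD18, HYAL4, KLC2, TRIML2 and GAP43), so the sides given there are those of the centres alone.

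The motif count was highest at ZNF613, whose region 894.5 bp into the gene, in intron 1, held 15 WGATAR in 200 bp. After GATA6 with 4, the next 8 by the ranking held 3 each and lay at TGFB2, SLFN11 (251 bp upstream), MTNR1A (258 bp upstream), a melatonin receptor gene, AHNAK (259 bp downstream), NR2F2, VWA5A (362 bp upstream), ALDH3A2 (610 bp upstream), a fatty aldehyde dehydrogenase, and MRPL1. Only GATA6 among the 10 was CpG-rich.

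There were 3 genes with 2 promoter regions. TRIML2 had them 11 and 682 bp upstream, MYORG 129 bp upstream and 800.5 bp downstream, and the unnamed gene ENSG00000273269 147.5 bp upstream and 911 bp downstream, the first of which also lay within 1 kb of the calmodulin gene CALM2. WGATAR was present in 5 of these 6 windows.

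Regions at divergent pairs lay inside 1 of the 2 genes in 23 of 24 cases, a share close to that given by position alone. The nearest gene was in such a pair, with 5′ ends at most 1 kb apart, for 24 of the 432 regions (5.56%, 3.76 to 8.13), and 8.54% of all protein-coding genes (1710 in 887 pairs) were. These shares have different bases, since the genes of a pair have most of a promoter in common, and they were not tested against each other. At the 24 pairs the region lay between the 5′ ends once, at IDH1 and PIKFYVE, whose ends are 181 bp apart, with replicate positions 27 and 5 bp upstream of IDH1. In the other 23 it lay 13 times in the plus-strand gene and 10 times in the minus-strand gene. The interval between the ends holds 9.08% of the bases within 1 kb of the ends of all pairs. The count of 1 in 24 between the ends is near that share and was not tested. The pairs with a region were 107 bp apart in the median. WGATAR was present in 18 of the 24 windows (75%, 55.1 to 88) and in 64.2% at the other promoters, and 8 of the 24 were CpG-rich.

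The 10 tightest pairs were described singly. At NEK1, a kinase of cilia and DNA repair, and CLCN3, a chloride transporter, 1 bp apart, the centre lay 746 bp into CLCN3 with 2 motifs. At TBC1D8 and CNOT11, 20 bp apart, it lay 854.5 bp into TBC1D8, before its canonical transcript, without a motif. At PPIL3 and NIF3L1, 24 bp apart, it lay 155 bp into NIF3L1, and at ATPSCKMT and CCT5, a chaperonin subunit, 32 bp apart, 202.5 bp into CCT5, each with 1 motif. CNOT7 and VPS37A (53 bp), SLC39A6 and ELP2 (59 bp), TUBE1 and FAM229B (62 bp), FBXL12 and UBL5 (76 bp), BRAP and ACAD10 (97 bp) and TSPYL4 and DSE (98 bp) were the others. Their centres lay 721 bp into VPS37A, 836.5 bp into ELP2, 734 bp into TUBE1, 617 bp into FBXL12, 371 bp into ACAD10 and 40 bp into DSE. WGATAR was present in 8 of the 10 windows.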

How the data were processed

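GATA3 ChIP-seq was analysed in 2 replicates of H1 hESC given BMP4 at 50 ng/ml for 6 h, each called against its own input. Per the study's methods and the submitters' processing notes, the authors trimmed with cutadapt, used Bowtie to align to hg38 and Picard for duplicates, left out multiply mapped reads and blacklisted regions, and called peaks with MACS2 in each replicate separately. The deposited files give 1 position per peak with a gene name and no count, height, width or score. How a peak became 1 position, and whether bases count from 0 or 1, is not given in the sources used here, so positions are uncertain by at least 1 bp. Signal tracks and reads were not analysed here. The read count behind a position is unknown, and the study's methods give only a mean aligned read count over samples. The lists were used as deposited, and their lengths differ from the peak numbers that the study's methods state, for a reason not given in the sources used here.

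Positions were joined within 100 bp, placed against GENCODE 44, and searched on both strands in 200 bp of hg38 (a motif match is not a bound site, and WGATAR covers AGATAA). The authors' name was among the genes within 1 kb at 372 of 432 regions. Shares carry 95% Wilson intervals, which cover counting error over regions only. Differences were tested with two-sided Fisher's exact tests over regions, adjusted by Benjamini-Hochberg over 16 tests, or over 18 motifs for the panel. Neighbouring regions were taken as independent. Gene lists (27) and divergent pairs were counted without a test. The members, lists and motifs were chosen with earlier results of these data known. Genes were named by fixed rules: all of 5 lists, the 10 nearest to a 5′ end, those with 2 regions, the 10 tightest divergent pairs, the 10 with most motifs, and up to 4 nearest of each other list. Python 3.11.15, numpy 2.4.6, scipy 1.17.1, pandas 2.3.3, statsmodels 0.14.6, pysam 0.24.0 and matplotlib 3.10.9 were used, and the steps were tested on simulated data. Alternatives are given in the closing section. The sequence of 1 further promoter window is not reported here.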

Additional observations from a re-analysis of the deposited data

How the results depend on the processing

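The number of promoter regions was 432, and 254 when a promoter ended at 500 bp. With a single replicate in place of both it was 674 to 882. It stayed within 1.5 times of 432 with partners within 50 or 250 bp and with canonical transcript starts. The deficit of WGATAR against other shared regions kept its direction under every alternative tried, with odds ratios of 0.317 to 0.326 in single replicates, and lost its test in CpG-rich windows alone (odds ratio 0.729, chosen after seeing the data). The panel gave 12 motifs, 7 when pooled over GC quintiles (chosen after seeing the data) and 15 in either replicate alone. The upstream share was 52.4% to 54.6% in single replicates and passed the test in replicate 1 alone only. Results that never passed a test changed direction: upstream against downstream WGATAR had odds ratios of 1.02 in 100 bp windows, 1.08 without divergent pairs and 1.11 to 1.18 in single replicates, and sharing of promoter positions in replicate 1 had 1.02 with partners within 250 bp. The shares at divergent pairs were 6.53% to 6.80% in single replicates, and the odds ratios of CpG-rich against other promoter regions 0.287 to 0.324. The cause of these changes was not tested. No paired analysis was possible because the replicate numbers are shared only between ChIP and input samples, and no input file was analysed. The number of replicates, and files without depth or peak height, limit the precision of every share.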

Other observations

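Some gene names rest on overlapping genes, where 1 position carries more than 1 gene name, or on genes with near-identical copies. Examples chosen after their values were seen are the readthrough genes ZNF670-ZNF695, NDUFC2-KCTD14 and EFNA4-EFNA3 and the histone genes H4C3 and H4C4. At 60 of the 432 promoter regions the authors' gene name was not among the GENCODE genes within 1 kb. At IDH1 the authors named PIKFYVE, the other gene of the pair, and at MYORG they used the older symbol KIAA1161.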
